A study of Mus musculus with 2 samples.

Results

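The Zscan4 cluster of the mouse lies on chromosome 7. It was taken here as 2 regions of the build mm9, chr7:11370001-11760000 (390 kb) and chr7:11890001-12200000 (310 kb), which had been chosen because they were higher in sorted 2C::tomato+ cells than in 2C::tomato- cells. Its members are the covered blocks of these regions, each a run of bases with at least 1 aligned read in either of the 2 deposited coverage tracks. There were 513 such blocks, of 801091 in the whole genome. Because the regions were chosen for their ratio between the libraries, every ratio below is a description of those libraries and no test is attached to it.

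The study sequenced mRNA of embryonic stem (ES) cells of the mouse, which carry the fluorescent 2C::tomato reporter and were separated by flow cytometry. The sorted populations were 2C::tomato+ and 2C::tomato-, with 1 library each (called the positive and the negative library). Both came from cells of a mixed strain with Kdm1a FL/FL alleles and CreERT, grown on gelatin in ES-KOSR medium with 150 ug/ml hygromycin. Kdm1a encodes the histone demethylase LSD1, FL/FL means that both alleles carry sites for excision by Cre, and CreERT is a form of Cre that acts when its ligand is given. The labels name no such ligand for either population. They also list crosses of LSD1 FL/FL with ZP3::Cre mice for oocytes and 2C embryos, which are not analysed here. The reporter is known as a transgene driven by the long terminal repeat of the endogenous retrovirus MuERV-L, so the sort selects cells by the activity of that repeat. How many ES lines or clones the sorted cells came from is not given in the sources used here. Marker genes of ES cells and the Kdm1a gene are not analysed here, since no annotation of mm9 was at hand.

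Zscan4 genes encode nuclear proteins with a SCAN domain, through which such proteins bind each other, and zinc fingers, which bind DNA. They are known for a burst of transcription in the mouse embryo at the 2-cell stage and for transient expression in a small share of cultured ES cells, where they have been linked to telomere lengthening. The family is a tandem array of close copies in both orientations, of which Zscan4c and Zscan4f are known as the forms of ES cells and Zscan4d as that of the embryo.

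The positive library held 37059813 alignments and the negative library 33833215, all of 72 bases and without gaps. A read that matches several places was listed at each of them, so an alignment is a listing and not always a separate read. Ratios are of shares of these totals, positive over negative, and brackets hold an exact conditional binomial 95% interval. The interval covers counting error only and treats each listing as a separate count, so it is too narrow where reads are listed at several copies. Where counts are given as a pair, the positive library comes first. In a sorted population, more cells with a transcript and more transcript per cell cannot be told apart.

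The copies are nearly the same sequence, and the results below turn on where they are not. A stretch of 72 bases in the last coding exon, bases 174 to 245 of exon 4, shows a difference of the size that these reads could tell apart. The sequences are from the transcripts of GENCODE M21, the positions are those at which the stretch was placed on mm9, and capitals mark the 5 bases at which Zscan4d differs from Zscan4c and Zscan4f. Zscan4c lies at chr7:11594533-11594604 on the plus strand, Zscan4f at chr7:11986726-11986797 on the plus strand and Zscan4d at chr7:11748011-11748082 on the minus strand.
Zscan4c: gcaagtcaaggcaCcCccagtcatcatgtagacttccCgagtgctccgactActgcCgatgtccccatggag
Zscan4f: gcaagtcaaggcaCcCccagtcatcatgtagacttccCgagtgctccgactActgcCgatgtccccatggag
Zscan4d: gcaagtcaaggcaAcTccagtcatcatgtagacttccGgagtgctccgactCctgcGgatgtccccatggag
In the positive library 9 alignments had exactly this extent in Zscan4c and 9 in Zscan4f, where the letters are the same and the same reads are listed. In Zscan4d there were 2. The negative library had 0 at each of the 3 places.

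The promoters of the same genes are also close to each other. Below are the 250 bases before the start of each gene from RefSeq's table for GRCm38.p6, whose coordinates are not those of mm9. They lie at chr7:11005495-11005744 on the plus strand for Zscan4c, at chr7:11166149-11166398 on the minus strand for Zscan4d and at chr7:11397665-11397914 on the plus strand for Zscan4f. Capitals mark matches to TATAAA, the core of a TATA box, and to CCAAT, the core of the element bound by NF-Y.
Zscan4c: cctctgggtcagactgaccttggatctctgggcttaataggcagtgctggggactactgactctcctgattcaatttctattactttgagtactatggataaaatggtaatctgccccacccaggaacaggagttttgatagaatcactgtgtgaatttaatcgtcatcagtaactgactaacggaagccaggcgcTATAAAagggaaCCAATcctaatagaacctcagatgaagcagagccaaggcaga
Zscan4d: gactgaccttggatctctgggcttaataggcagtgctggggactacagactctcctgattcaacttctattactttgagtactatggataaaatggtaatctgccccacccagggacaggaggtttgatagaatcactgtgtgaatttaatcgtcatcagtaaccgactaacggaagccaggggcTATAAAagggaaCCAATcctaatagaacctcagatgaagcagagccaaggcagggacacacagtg
Zscan4f: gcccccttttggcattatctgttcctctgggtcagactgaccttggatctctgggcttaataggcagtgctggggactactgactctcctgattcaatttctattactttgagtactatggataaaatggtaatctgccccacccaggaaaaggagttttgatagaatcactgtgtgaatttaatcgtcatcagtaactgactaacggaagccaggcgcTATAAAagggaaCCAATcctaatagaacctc
Over their aligned bases Zscan4c and Zscan4f were identical at 226 of 227 (99.6%), Zscan4c and Zscan4d at 97.1%, and Zscan4d and Zscan4f at 96.8%. Both motifs were searched on both strands, and their matches did not overlap in these genes. TATAAA had 1 match in each of the 4 Zscan4 genes of the table (Zscan4b is the other), 54 bases before the start in Zscan4c, 65 in Zscan4d and 31 in Zscan4f. CCAAT also had 1 match in each, 42, 53 and 19 bases before the start. These distances depend on where each start is annotated, and the bases between the motifs were the same in Zscan4c, Zscan4d and Zscan4f. TATAAA occurred in 12.4% of all 32851 promoters of the table and CCAAT in 33.8%. The motif TGCACAC, also searched on both strands, had no match in the 4 genes and occurred in 3.67% of all promoters. Zscan4c, Zscan4d and Zscan4f each had 3 CpG dinucleotides in this window, against a median of 6 over all promoters. The remaining 5 genes of the family were not in the table.

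Covered blocks of the cluster were mostly of 2 kinds, higher in the positive library or about equal in both. Of 83 blocks with 20 or more alignments (both libraries summed), 45 had a ratio of 4 or more with an interval above 1 and are called higher, while 35 had ratios of 0.5 to 2 and are called shared. The same rules gave 1014 higher blocks among 103461 genome-wide (0.980%) and 96308 shared ones (93.1%). Since the regions were chosen on this contrast, nothing is read from the excess of higher blocks. The largest ratio of a shared block was 1.37 and the smallest finite ratio of a higher block 58.7. The 16 higher blocks with 0 negative alignments have only a lower bound, which lies between those values, and 3 blocks lay below 0.5 and are called intermediate. None of the 83 blocks was at least 4-fold lower in the positive library, a class that held 0.131% of blocks genome-wide.

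The higher blocks covered 30157 bases, 4.31% of the regions, and carried 82.5% of the positive library's alignments there. They held 26556 positive and 147 negative alignments, with a ratio of 165 (140 to 195). This interval is too narrow, since many reads are listed at several copies. Weighting each alignment by its number of places gave a ratio of 152 (114 to 205). Places were counted only in stretches with enough starts to be compared, so this weighting is partial. In the negative library only 2.80% of the alignments in the regions lay in them, and 16 of the 45 blocks had 0. For those 16, a floor of 3 counts per block in place of 0 gives 7.91-fold to 16.1-fold higher levels. The lower limits of their intervals are smaller, from 5.99 to 12.7. The first region had 22 higher blocks with 14067 and 78 alignments, the second 23 with 12489 and 69, and both had a ratio of 165. Counting each start position a single time, whatever its number of alignments, gave a ratio of 75.1 for the 45.

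**Figure D1:**
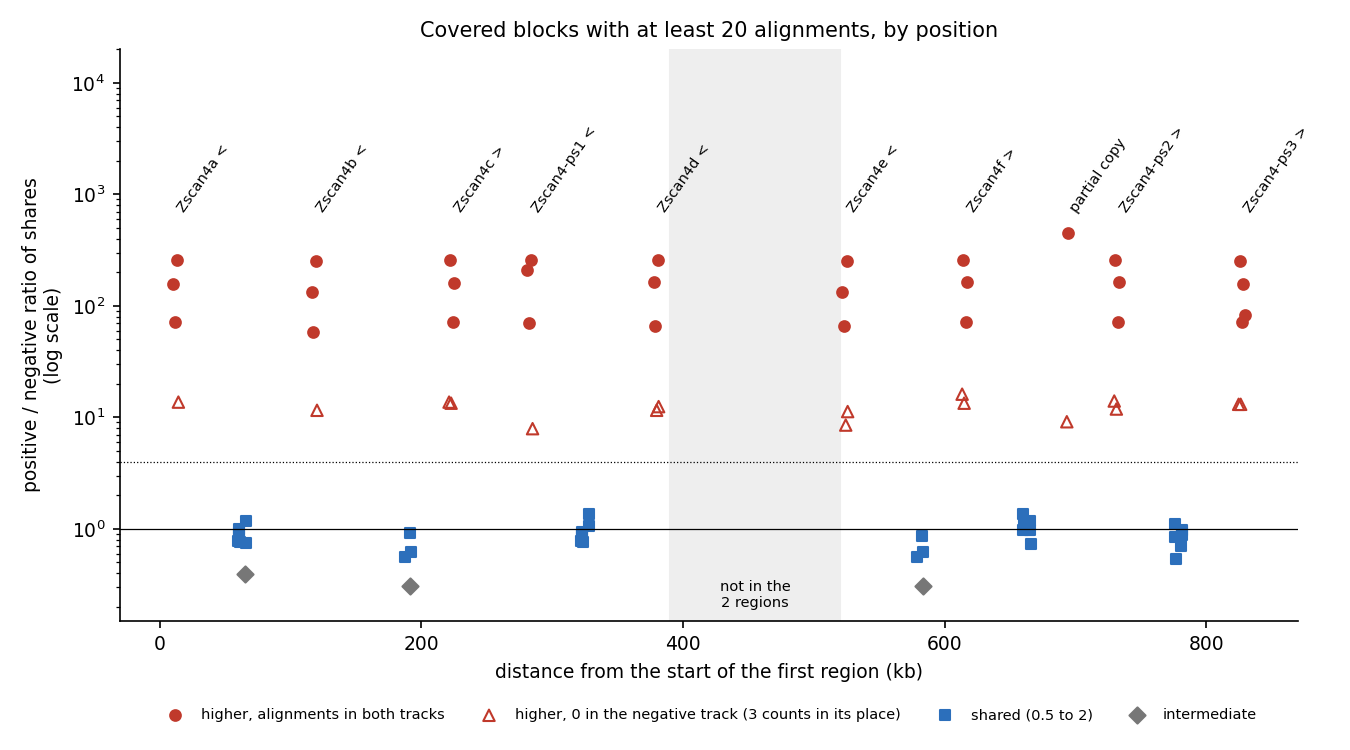
Each point is 1 covered block with at least 20 alignments, plotted by distance from the start of the first region (kb) against its positive to negative ratio of shares (log scale); red, higher, blue, shared, grey, intermediate, with names and orientation (> plus, < minus) of the copies above. Higher blocks with alignments in both tracks lie between 58.7 and 452, shared blocks between 0.535 and 1.37, and the 2 kinds sit at different places. Open triangles, at 7.91 to 16.1, use 3 counts in place of 0. The lower limits of their intervals are 5.99 to 12.7.

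All 45 higher blocks lay in 10 short clusters of blocks, each 1091 to 4978 bases long and 35.2 to 140 kb from the next. Laying the 36 exons of the 9 annotated Zscan4 genes on chromosome 7 as 1 rigid pattern of lengths and distances, 820 kb long, named 9 of these 10 clusters. Every exon of the pattern held an alignment at 16 neighbouring places that spanned 41 bases, and at most 32 of 36 did at any place over 10 kb away. The place was then fixed to the base by the sequence. At it, 1604 words of 72 bases that occur in 2 or more genes had the same start counts in each gene, with 0 exceptions, whereas a shift by 1 base left at least 935 unequal. In order along the chromosome the copies were Zscan4a, Zscan4b, Zscan4c, Zscan4-ps1, Zscan4d, Zscan4e, Zscan4f, a partial copy with no annotated gene of the pattern, Zscan4-ps2 and Zscan4-ps3. GENCODE lists Zscan4a as a pseudogene and the other 8 as protein coding, 3 of them under names that mark pseudogenes.

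Zscan4c (ENSMUSG00000054272.6) filled 5 higher blocks at chr7:11591042-11595897 on the plus strand. It had 3110 positive and 17 negative alignments, with a ratio of 167 (104 to 287). Its first block, around exon 1, had 45 and 0 alignments, 13.7-fold higher against a floor of 3, with 10.7 as the lower limit of its interval. Exon 2 lay in a block of 596 bases with 847 and 3 alignments. A block with exon 3 had 234 and 3. Exon 4, the last exon, lay in a block of 1580 bases, chr7:11594318-11595897, with 1940 and 11 alignments at a ratio of 161 (89.8 to 323). The remaining block, of 595 bases with 44 and 0 alignments, lay inside intron 2.

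Zscan4f (ENSMUSG00000070828.10), also on the plus strand, had almost the same profile. Its 5 higher blocks at chr7:11983235-11988091 held 3150 positive and 17 negative alignments, with a ratio of 169 (105 to 291). The blocks of exons 2 and 3 and the block in intron 2 had the same counts as in Zscan4c, 847 and 3, 234 and 3, and 44 and 0. Those of exon 1 (53 and 0) and exon 4 (1972 and 11, at chr7:11986511-11988091) differed from it by a few alignments. The exon 4 block of Zscan4f had the most alignments of all higher blocks.

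Zscan4d (ENSMUSG00000090714.10), on the minus strand, held fewer alignments in exon 4 than the other 2. Its 5 higher blocks at chr7:11746722-11751560 had 2758 positive and 15 negative alignments, with a ratio of 168 (102 to 300.3). Exon 4 lay in a block of 1576 bases with 1619 and 9 alignments, against 1940 and 1972 in the positive library for Zscan4c and Zscan4f. Exon 3 had a block of 193 bases with 216 and 3, exon 2 one of 620 bases with 844 and 3, and exon 1 one of 341 bases with 41 and 0. A block of 513 bases in intron 2 had 38 and 0.

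The other annotated copies had ratios of the same order when each listing was counted. Zscan4a had 2830 and 16 alignments, with a ratio of 161 (99.3 to 283), and Zscan4b had 2666 and 17, with a ratio of 143 (89.2 to 246). Zscan4e had 2713 and 17, with a ratio of 146 (90.8 to 250.5). Among the copies named as pseudogenes, Zscan4-ps1 had 2703 and 13, Zscan4-ps2 3127 and 17, and Zscan4-ps3 2974 and 17, with ratios of 190 (111 to 357), 168 (105 to 289) and 160 (99.6 to 275). With stretches found at several places left out, the ratio was 109 for Zscan4a, 181 for Zscan4d, 228 (40.6 to 9050) for Zscan4-ps2 and 439 (78.4 to 17380) for Zscan4-ps1, but 36.1 (13.8 to 134) for Zscan4b, 49.3 (13.3 to 412) for Zscan4e and 63.8 (29.05 to 175) for Zscan4-ps3. Zscan4c and Zscan4f have no finite value then. Only stretches with enough starts to be compared could be left out, so some listings at several copies can remain in these values. With each listing counted, the intervals of all these copies overlap, and their positive levels ran from 22.1 to 26.9 on the RPKM scale (alignments per kilobase of covered block, scaled to library size). The 5 higher blocks with the most alignments were all exon 4 blocks. After Zscan4f came Zscan4-ps2 (1959 and 11, chr7:12102881-12104461), Zscan4c, Zscan4-ps3 (1724 and 10, chr7:12197881-12199077) and Zscan4a (1702 and 10, chr7:11379590-11381172). The partial copy, chr7:12063354-12064444, had a block of 155 bases with 30 and 0 alignments and another of 404 bases with 495 and 1, together a ratio of 479 (85.6 to 18967).

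**Figure D2:**
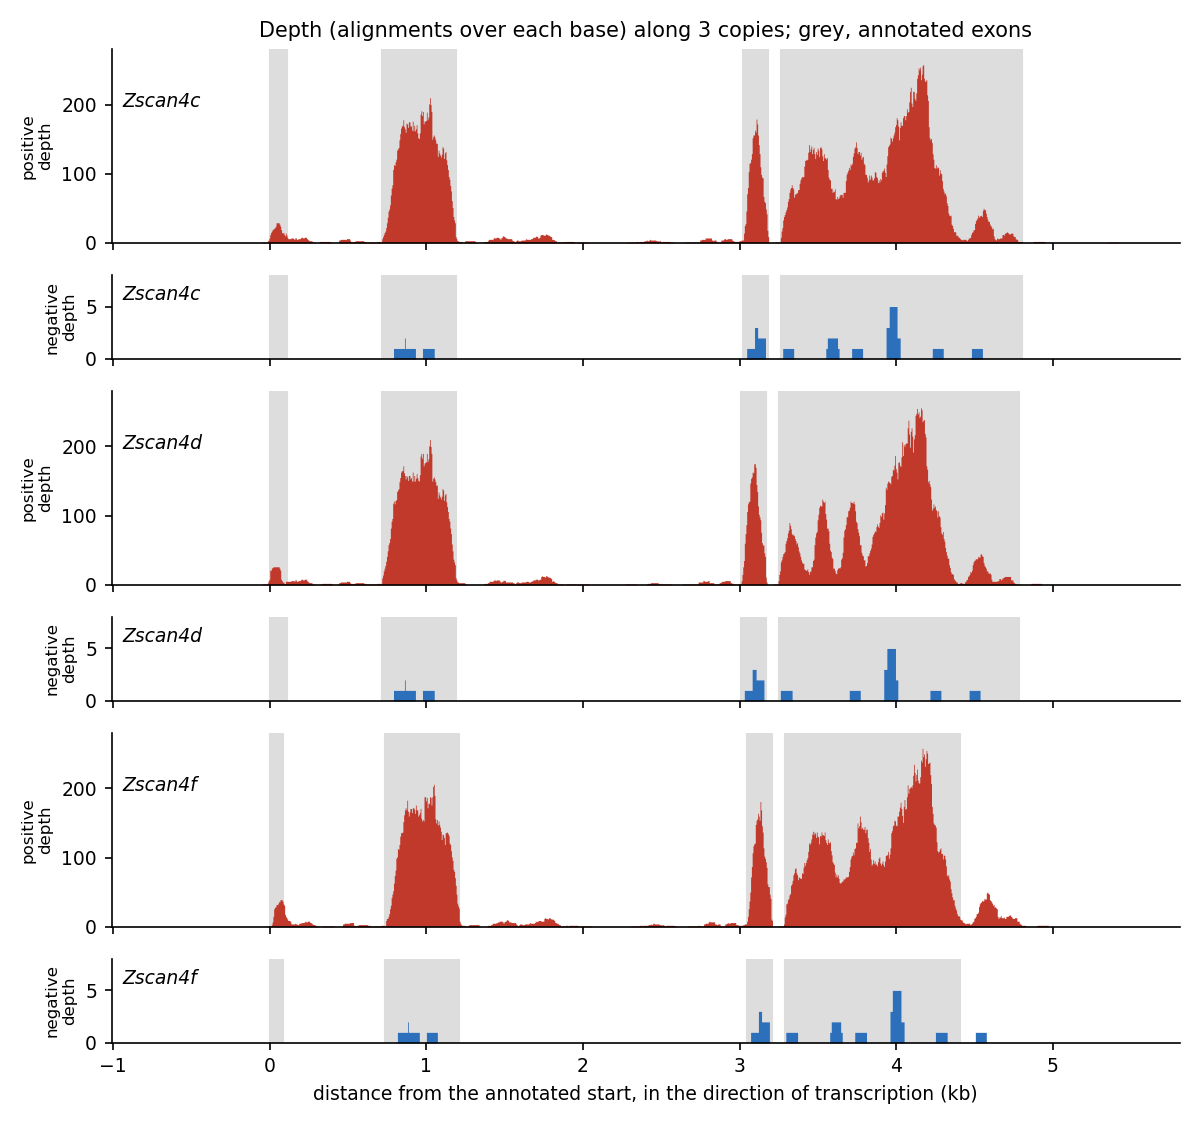
Depth, in alignments over each base, along Zscan4c, Zscan4d and Zscan4f against distance from the annotated start in the direction of transcription (kb), with the positive library in red, the negative library in blue on a smaller scale and annotated exons in grey. The greatest depth is 258 (positive) and 5 (negative) in each of the 3 copies, and most of it lies over exons.

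The copies shared most of their listings, so their near-equal levels are not separate measurements. A word here is the sequence of 1 possible alignment, 72 bases long, and a start is the first base of an alignment. Between annotated transcripts identity ran from 96.6% (Zscan4b and Zscan4d) to 99.8% (Zscan4f and Zscan4-ps2), with 99.5% for Zscan4c and Zscan4f and 97.3% for Zscan4c and Zscan4d. Aligned words of 72 bases that were identical had equal start counts in 13497 of 13497 pairs with any start. That value is no separate result, since the place on mm9 had been chosen for such equality. The share with equal counts was 94.1% at 1 differing base, 87.9% at 2, 62.3% at 3, 13.6% at 4 and 7.58% at 5. Sequence that differs at 5 or more of 72 bases was therefore counted mostly apart, and sequence that differs at 3 or fewer was mostly counted together.

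**Figure D3:**
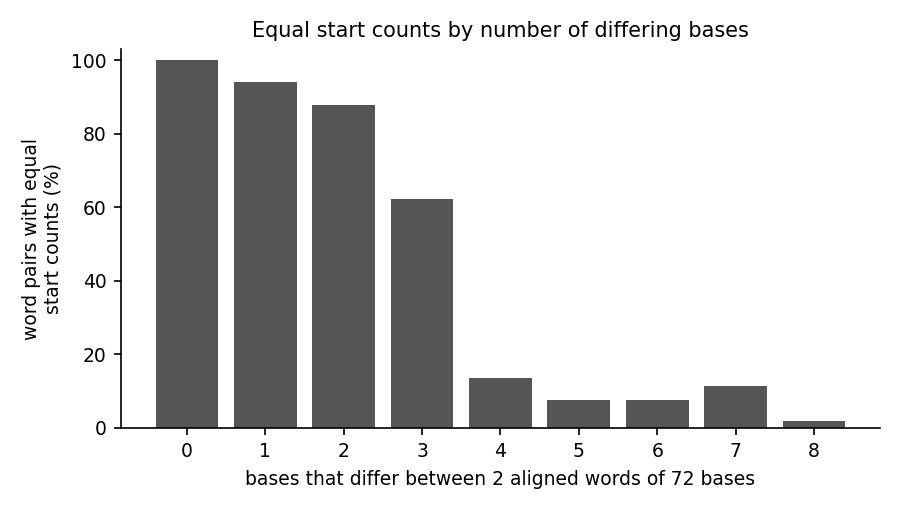
Share of aligned pairs of 72-base words from different copies with equal start counts (percent, y axis) by the number of bases at which the words differ (x axis). The bars fall from 100% at 0 differing bases, for which the place on mm9 had been chosen, to 62.3% at 3 and 13.6% at 4.

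The exons of the 9 genes together had 24408 positive and 143 negative listings, with a ratio of 156 (132 to 185). Taking at each aligned position only the copy with the most starts, an alternative added after the data were seen, left 3158 and 17, with a ratio of 170 (106 to 291). The listings thus came to 7.73 for each alignment of that reduced count. The reduced count drops reads that differ between copies, and its ratio was as large as that of the listings. Stretches of 64 bases with the same start pattern in several places made up 87.2% of what the higher blocks held. They recurred at up to 9 places, and none of those places was outside the 2 regions. Pairs of copies shared such stretches in 1 orientation only, the same or the opposite, which matched their annotated strands for all 9 named genes. Zscan4c and Zscan4f shared 780 stretches, Zscan4f and Zscan4-ps2 814, and Zscan4b and Zscan4e 856.

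Where the sequence allowed the copies to be told apart, Zscan4d had fewer alignments than Zscan4c and Zscan4f in the positive library. In 414 aligned words that differ at 5 or more bases, 294 starts lay in Zscan4c and 67 in Zscan4d, 4.39 times as many (3.36 to 5.81). In 188 such words 246 starts lay in Zscan4f and 36 in Zscan4d, so that Zscan4d had 0.146 (0.100 to 0.208) of the starts of Zscan4f. With at least 6 differing bases the latter fraction was 0.224 (0.119 to 0.396). Zscan4c and Zscan4f had no words that differ this much, so neither could be separated from the other, and Zscan4f could not be separated from Zscan4-ps2. A word that sets Zscan4c apart from Zscan4d can be the same in Zscan4f and Zscan4-ps2, so these counts describe groups of like sequence and not single genes. All comparisons of words use the reference sequence. Those of starts in words told apart were not planned beforehand. The cells are of a mixed strain, and whether their own copies differ from the reference was not tested. In the negative library the words of these comparisons had 0 or 1 starts in a gene, which is too few to compare the copies there.

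Zscan4c also lay above Zscan4b, Zscan4e and Zscan4-ps1 in this comparison. It gave 394 starts in Zscan4c against 104 in Zscan4b, 380 against 101 in Zscan4e (3.76 times, 3.01 to 4.73) and 180 against 26 in Zscan4-ps1 (6.92 times, 4.57 to 10.9). Zscan4b and Zscan4e are 99.7% identical and had no words that differ this much. The values against these genes are therefore not separate results. With at least 4 differing bases the excess over Zscan4-ps1 was 3.99-fold. Zscan4a had 47 starts against 122 in Zscan4c, with a ratio of 0.385 (0.269 to 0.544). With at least 4 differing bases it had 113 against 316, with a ratio of 0.358 (0.286 to 0.445). With at least 6 it had 11 against 12, and at that limit its place relative to Zscan4c was not resolved (0.366 to 2.27). At 5 or more differing bases Zscan4-ps3 was not separated from Zscan4c, with 16 starts against 23 in Zscan4c. Zscan4c thus had 1.44 times as many (0.727 to 2.91). At 4 or more differing bases Zscan4c had 128 starts and Zscan4-ps3 34, or 3.76 times as many. Of the copies compared, only Zscan4-ps2 had more starts than Zscan4c, 13 against 3 in 63 words. The ratio of Zscan4c over Zscan4-ps2 was 0.231 (0.0422 to 0.840). Limits of 4 and 6 differing bases gave the same starts, in 64 and 62 words. Such words can overlap, and whether these lie at a single site was not tested.

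Zscan4d lay above Zscan4b and Zscan4e and below Zscan4a, Zscan4-ps2 and Zscan4-ps3 in words told apart. The starts were 267 in Zscan4d against 154 in Zscan4b and 275 against 178 in Zscan4e (1.54 times, 1.27 to 1.88). They were 49 against 106 in Zscan4a, 43 against 250 in Zscan4-ps2 and 115 against 236 in Zscan4-ps3. Zscan4b and Zscan4e could not be separated from each other, so the excess over both is a single result. Zscan4-ps1 had 46 starts and Zscan4d 39, with a ratio of 1.18 (0.753 to 1.86) that does not separate them, and with at least 4 differing bases the ratio fell to 0.636 (0.469 to 0.856). The order of these 2 copies therefore depended on that limit.

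**Figure D4:**
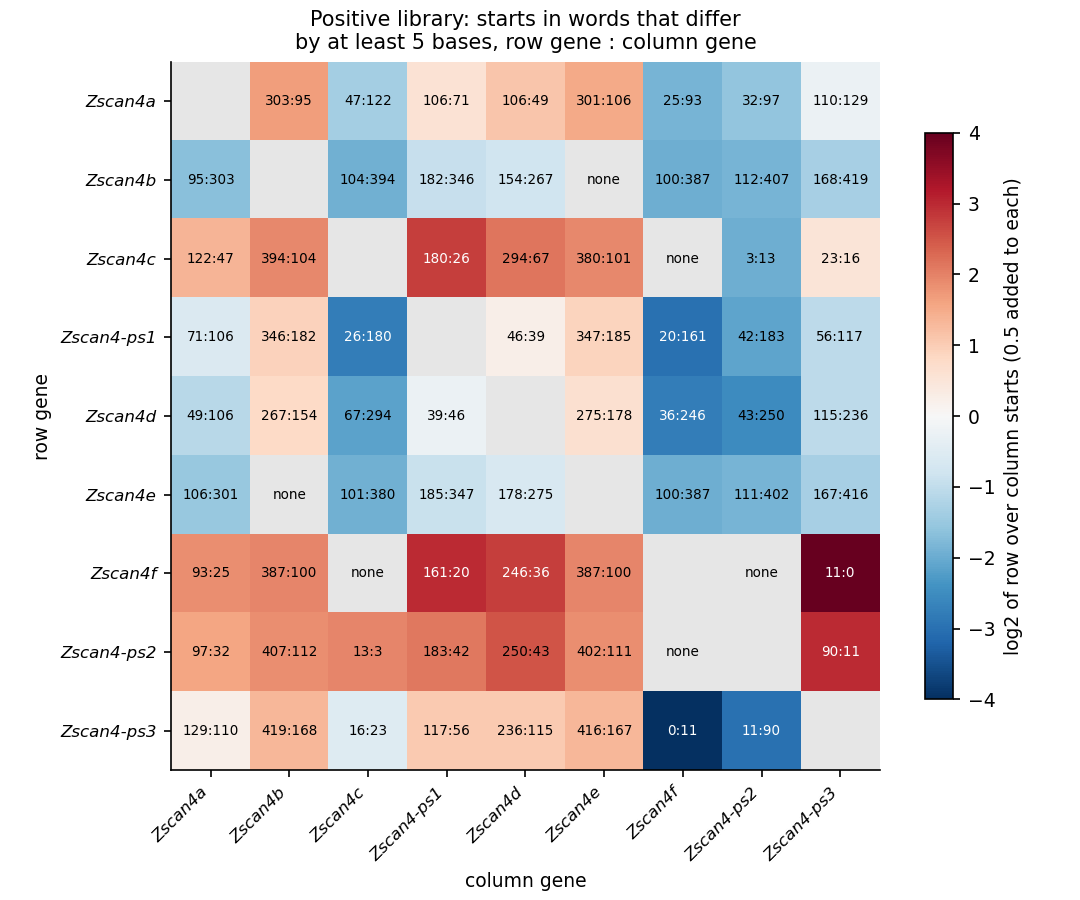
Starts of the positive library in 72-base words that differ at 5 or more bases between 2 copies, row gene first, with colour for the log2 ratio of row over column (0.5 added to each count) and "none" where a pair has no such words. The rows of Zscan4c and Zscan4f are mostly red, with 294 against 67 and 246 against 36 starts for the column of Zscan4d, whose row is blue against those genes and red against Zscan4b and Zscan4e.

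Within a copy the alignments followed the exons. Zscan4c had 2976 positive and 17 negative starts of alignments wholly inside exons, 94 and 0 wholly inside introns, and 12 and 0 that crossed an exon border with at least 10 bases on each side. Zscan4d had 2642 and 15 in exons, 79 and 0 in introns and 9 and 0 across borders, and Zscan4f had 2888 and 16, 97 and 0, and 34 and 0. Per possible start position, exons had 39.6 times as many positive starts as border crossings in Zscan4c, 47.0 times in Zscan4d and 17.5 times in Zscan4f. In the 9 genes this ratio ran from 17.5 to 60.0. The lowest values, 17.5 in Zscan4f and 24.5 in Zscan4e, belong to the genes annotated with an exon 1 of 82 bases. Their intron 1 has 655 and 656 bases, against 607 in Zscan4c and Zscan4d, so their first border is annotated at another place. Zscan4f and Zscan4e had 34 and 21 positive crossings, against 8 to 14 in the other genes. Whether the annotation gives this contrast was not tested. Reads across spliced junctions are not among ungapped alignments, so the depth near each border understates the RNA there.

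The level was not even along the exons. Per possible start position the positive library had 2.09 starts in exon 2 and 2.28 in exon 3 of both Zscan4c and Zscan4f, and 2.07 and 2.28 in Zscan4d. Exon 1, a short leader of 107 bases in Zscan4c and Zscan4d, had 0.389 and 0.167 starts per position there, from 14 and 6 starts. Exon 4 had 1.31 in Zscan4c, 1.10 in Zscan4d and 1.77 in Zscan4f, whose annotated exon 4 is shorter (1115 bases, against 1537 and 1533). In exon 4 Zscan4d lay below Zscan4c and Zscan4f in the first 600 bases, and the 3 copies were close together in the next 300. Zscan4c had 439 starts in the first 300 bases of that exon and 417 in the next 300, Zscan4f 437 and 432, and Zscan4d 271 and 270. In bases 601 to 900 the counts were 784, 794 and 791. In the first 300 bases Zscan4a (314), Zscan4b (236), Zscan4e (233), Zscan4-ps1 (248) and Zscan4-ps3 (313) were also below Zscan4c and Zscan4f, and in the next 300 Zscan4a (325), Zscan4b (376), Zscan4e (372) and Zscan4-ps1 (384) were. Zscan4b and Zscan4e were lower in bases 601 to 900 (632 each) than the other 7 genes (784 to 794).

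**Figure D5:**
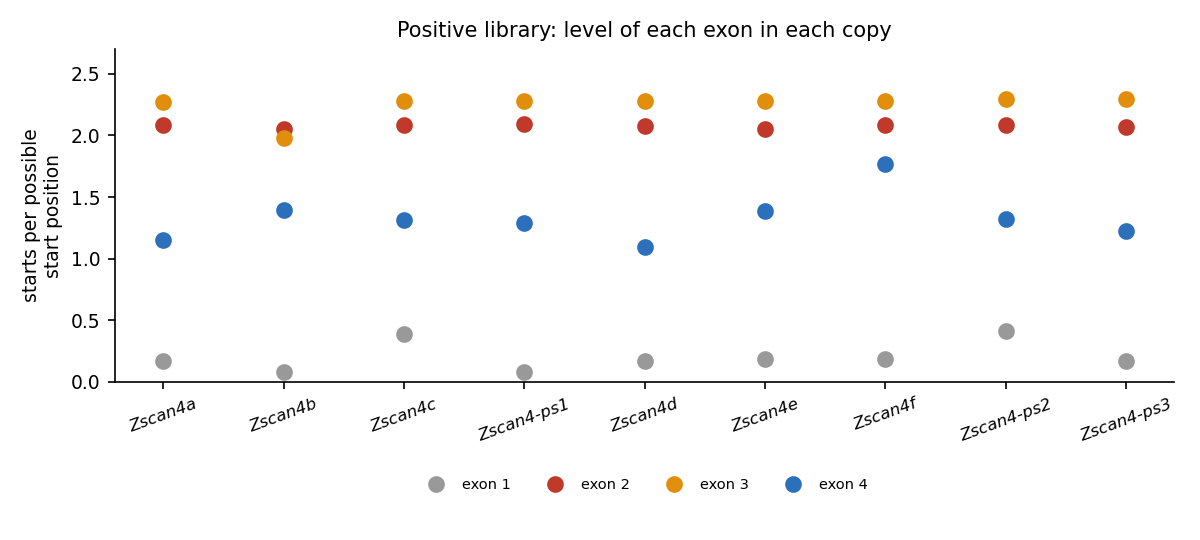
Starts of the positive library per possible start position (y axis) in exons 1 to 4 of the 9 annotated genes (x axis, in order along the chromosome). Exon 2 sits between 2.05 and 2.09 in every gene and exon 3 between 1.98 and 2.29, exon 4 spreads from 1.10 in Zscan4d to 1.77 in Zscan4f, and exon 1 is lowest, at 0.08 to 0.417.

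Some alignments lay outside the annotated exons, and they too were on the positive side. A higher block inside intron 2, which starts 174 or 176 bases after exon 2 and is 444 to 595 bases long, was found in 6 of the 9 genes: Zscan4c, Zscan4d, Zscan4e, Zscan4f, Zscan4-ps2 and Zscan4-ps3. It held 28 to 44 positive and 0 negative alignments. In Zscan4a, Zscan4b and Zscan4-ps1 no single block of intron 2 reached 20 alignments. Their blocks there summed to 32, 50 and 33 positive and 0 negative alignments, against 49 to 59 and 0 in the 6 genes. Which genes had a higher block there thus depended on the limit of 20 alignments per block. The last block went past the annotated 3′ end by 424 bases in Zscan4f, with 109 and 1 alignments there. It did so by 633 bases in Zscan4b and 644 in Zscan4e, with 247 and 1 and 259 and 1. In Zscan4a, Zscan4c, Zscan4d and Zscan4-ps2, whose annotated exon 4 is longer than in Zscan4f, the block passed the end by 1 base. In Zscan4-ps1 it passed the end by 124 bases, with 15 and 0 alignments, and in Zscan4-ps3 it ended before the annotated end. At the other end the first block began 52 bases before the annotated start in Zscan4c and Zscan4d and 29 before it in Zscan4f.

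Blocks shared by both libraries lay between the copies and never in them. The 35 shared blocks had 4805 positive and 4822 negative alignments, with a ratio of 0.910 (0.874 to 0.947). They covered 4983 bases and held 91.7% of the negative library's alignments in the regions, against 14.9% of the positive library's. With 3 intermediate blocks (ratios 0.304 to 0.391, together 21 and 57 alignments) they formed 6 groups, 27.3 to 45.4 kb from the nearest copy. The group at chr7:11429846-11436295 had 999 and 1008 alignments, with a ratio of 0.905 (0.828 to 0.989). The group at chr7:11692030-11698585 had 1353 and 1376, and that at chr7:12145984-12151958 had 1323 and 1299, with ratios of 0.898 (0.832 to 0.968) and 0.930 (0.861 to 1.005).

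The remaining groups were smaller or alike. The group at chr7:12029492-12036028 had 950 and 907 alignments, with a ratio of 0.956 (0.872 to 1.05). The thinnest groups, at chr7:11557177-11561873 (84 and 126) and chr7:11949191-11953878 (117 and 163), had the lowest ratios, 0.609 (0.456 to 0.809) and 0.655 (0.512 to 0.836). Groups are not independent of each other. The 2 thinnest share blocks with equal counts (34 and 56, 6 and 18, 17 and 25), so their low ratios are not separate measurements. The block with 34 and 56, of 119 bases, had stretches that recurred at up to 14 places, also outside the regions. The groups that begin at 11429846 and 11692030 share 4 blocks with equal counts (128 and 150, 136 and 142, 228 and 221, 61 and 73), and the block with 136 and 142 recurs in the group that begins at 12145984.

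The shared blocks with the most alignments were 142 to 281 bases long. At chr7:12151678-12151958 there were 793 and 737 alignments (ratio 0.982), at chr7:11692522-11692778 673 and 683 (0.900), and at chr7:12035297-12035532 419 and 391 (0.978). The next were chr7:11430338-11430593 with 387 and 352 (1.004) and chr7:12151206-12151347 with 251 and 242 (0.947). Unlike the higher blocks, 13 of the 35 shared blocks had stretches that recurred outside the regions, at up to 14 places. Repeated stretches held 49.4% of their alignments. No annotation of mm9 was at hand to say what lies at these blocks.

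The other 430 blocks were thin, with under 20 alignments each, and had 806 and 233 alignments in all, with a ratio of 3.16 (2.73 to 3.67). The 65 thin blocks inside the copies had 316 positive and 0 negative alignments. Against a floor of 3 counts this set was 96.2-fold higher, and the lower limit of its interval was 77.7. The 60 thin blocks within 5 kb of a copy had 82 and 32 alignments, with a ratio of 2.34 (1.54 to 3.64). The 305 thin blocks elsewhere had 408 and 201, with a ratio of 1.85 (1.56 to 2.21). Both ratios were far below those of the copies and above those of the shared blocks. The ratio of thin blocks over the whole genome was not computed, so these values are not read as particular to the regions.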

How the data were processed

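mRNA of 2 sorted ES cell populations was measured, with 1 library each and groups taken from the sample titles. The authors deposited 1 coverage (signal) track per library in bedGraph form, per the file headers, whose values are the number of aligned reads over each base and are not scaled to depth. The submitters' processing notes name Bowtie and mm9. Its version is not given in the sources used here, nor are settings or filters. Strand is not kept, and no depth was pooled over libraries.

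The tracks were decoded exactly into ungapped alignments of 72 bases, since the depth of a base fixes which alignments begin there once earlier ones are known. No start count was below 0, and the shortest block was 72 bases. Covered blocks, classes, copies (higher blocks within 5 kb) and repeated stretches (64 bases, at least 8 bases with starts and at least 20 starts, compared exactly in both orientations) were then computed. Decoding and block calls were tested on simulated data. Blocks were given by coordinates for the 5 higher and 5 shared ones with the most alignments, and genes of the family by name. Members, lists and limits were chosen with earlier results of these data known. With 1 library per population there is no replicate check and no p-value. Reads carry no molecular identifiers, so intervals and floors cover counting error only, and they count each listing of a read separately.

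Gene models were GENCODE M21 (GRCm38), used for lengths, distances and sequence and never for coordinates on mm9. Other genes of the 2-cell stage, ES markers and proteins were therefore not analysed here. Transcripts and promoters were aligned with MAFFT 7.526; the rest used Python 3.11.15 with numpy 2.4.6, scipy 1.17.1, pandas 2.3.3 and matplotlib 3.10.9. Alternatives tried were the minimum number of alignments, the block definition, the scaling, the fold rule, distinct positions and the treatment of repeated reads.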

Additional observations from a re-analysis of the deposited data

How the results depend on the processing

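Of 95 values recomputed under another setting, 66 stayed within their main interval or within 1.5 times their main count, 29 moved, and none that was above or below 1 with its interval reversed. The number of higher blocks was 45 and ranged from 30 to 49 except with gaps of up to 100 bases bridged, where 23 longer blocks remained. Counted by distinct start positions, the higher blocks together had a ratio of 75.1. The copies then had 72.4 (Zscan4a), 67.1 (Zscan4b), 75.6 (Zscan4c), 89.9 (Zscan4-ps1), 78.9 (Zscan4d), 68.9 (Zscan4e), 75.9 (Zscan4f), 74.8 (Zscan4-ps2) and 72.2 (Zscan4-ps3). With repeated stretches left out, the ratio was 36.1 for Zscan4b, 439 (from 1 negative alignment) for Zscan4-ps1, 49.3 for Zscan4e and 63.8 for Zscan4-ps3. Zscan4c, Zscan4f and the partial copy then had no negative alignments and give no value. Weighting each alignment by its number of places gave 95.2 for Zscan4-ps3 and no value for the partial copy. Places were counted only in stretches with enough starts to be compared. Listings at several copies can therefore remain after the weighting and after repeated stretches are left out. The cause of these shifts was not tested. The limits of 4 and 6 differing bases and the count of the highest copy were added after seeing the data. The comparison of starts in words told apart was itself not planned beforehand, and this holds for its main limit too. No paired analysis was possible because there is only 1 library on each side, and no replicate could be left out. The negative library's 13 to 17 alignments per named copy limit every ratio.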
